A study of Mus musculus with 7 samples.

Results

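Across the transcriptome of TRAMP-C1 cells, 20 genes were expressed with empty vector and lay at no more than 0.5 times that level with the PAX8-NFE2L2 fusion. They were chosen by their measured empty vector and fusion values: genes at 2 CPM (reads of a gene per 1000000 reads assigned to genes) or more in each empty vector library whose highest fusion CPM was at most 0.5 times the lowest empty vector CPM. Of 46603 gene rows, 11730 reached 2 CPM in each empty vector library and 33 (0.281%) met both criteria. Among these, 13 were set aside because the rule leaves out their gene family or symbol (7 genes) or a stretch of chromosome 9 from 5.2 to 8.2 Mb (6 genes), which leaves the 20. All fusion libraries lay below all empty vector libraries for 7.52% of the 11730, which the members do by the rule. The 20 encode a semaphorin, a calcitonin-family peptide, matrix and adhesion proteins, receptors, ion channels, an amino acid transporter, surface and secreted enzymes, signalling proteins inside the cell, a membrane protein of the endoplasmic reticulum and a homeobox protein. All 20 are protein coding, as were 91.5% of the 11605 genes at 2 CPM that the rule could have taken.

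TRAMP-C1 is a cell line from a prostate tumour of the C57BL/6-TgN(TRAMP)8247Ng mouse strain, in which a transgene drives tumour formation, so all libraries share that background. The fusion group (3 libraries) was transduced with the Lv229 lentiviral vector carrying PAX8-NFE2L2, and the empty vector group (3 libraries) with the matching vector alone. Medium was renewed 12 h after transduction and the cells grew on for 24 h. A further library is labelled WT, with no vector in its label, and has no replicate. The sources used here do not give the promoter that drives the fusion, the number of integrations or whether replicates came from separate cultures, so spread between replicates may be technical. PAX8 directs the development of thyroid and kidney as a transcription factor. NFE2L2 encodes NRF2, a transcription factor that KEAP1 normally holds at low levels and that switches on genes for glutathione, thioredoxin and detoxification through antioxidant response elements. NRF2 is known above all as an activator, and genes that are lower when it is active form the less studied side of its response.

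Reads assigned to genes numbered 26368182 to 59597170 per library, and 3 reads correspond to 0.0503 to 0.114 CPM. The shallowest library was fusion replicate 3. Both libraries numbered 3 were run in other lanes than the rest and had more reads with several alignments (44.8 and 45.3% against 36.1 to 38.9%). Genes chosen without number 3 in both groups came to 93. All 20 were among them by the rule itself, since meeting it in 3 numbers entails meeting it in 2. Within the remaining lanes, edgeR called 10 of the 20 lower. The labelled cell type, prostate epithelial, was checked against its markers. Among 16 prostate epithelial markers 3 reached 2 CPM in each empty vector library. Krt8 (0.492 to 1.97 CPM) and Epcam (0.0908 to 0.549 CPM) were low in all 7 libraries. All 15 fibroblast and mesenchymal markers reached 2 CPM, with Vim at 2131 to 3802 CPM. Summed levels of these mesenchymal markers were 16750 to 24820 CPM with empty vector and 14470 to 21370 CPM with the fusion, ranges that overlap. None of the 15 passed the edgeR test in either direction. Single markers did separate: Col3a1 lay at 4043 to 4714 CPM with empty vector and 1736 to 2801 CPM with the fusion. Zeb2 lay at 67.97 to 76.83 and 47.41 to 55.05 CPM, and the ranges of the other mesenchymal markers overlapped. Of the prostate markers 2 passed as higher with the fusion. Over all tested genes 2.04% passed in either direction. Immune and endothelial markers summed to at most 4.23 and 1.12 CPM in any library. Their part in the values below was not tested. In bulk RNA, fewer cells that express a gene and less RNA per cell cannot be told apart.

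The choice of these genes used their empty vector and fusion values, so those values are a description and carry no test. Means of the groups differed 2.65- to 5.37-fold, with a median of 3.62-fold. The median fitted log2 fold change was -1.82 (range -2.43 to -1.39), beside 0.01 over all 16731 genes tested with edgeR. In that fit 16 of the 20 passed as lower (quasi-likelihood test of edgeR, p adjusted by Benjamini-Hochberg, threshold 0.05). Over all tested genes 0.353% passed as lower and 2.04% in either direction, and nothing is read from the members' count, since the same contrast chose them. The 4 that did not pass were Lrrc17, Rasgrf1, Lrrc4c and Hdx. With the replicate number as a block 20 of 20 passed, beside 5.5% of all tested genes, and with DESeq2 20 of 20, beside 1.4%. Where no other fit is named below, a gene that did not pass missed the threshold in the edgeR fit without the block. Without empty vector replicate 2 edgeR called 3 of the 20, without fusion replicate 1 or 2 it called 4 and 6, and without number 1 or number 2 in both groups 0 (20 each at an unadjusted p under 0.05). Leaving out empty vector replicate 1 gave 11. Mean empty vector levels, not corrected for gene length, ran from 3.92 CPM (Gucy1a2) to 130.2 CPM (Slc38a4) with a median of 16.3 CPM, beside 38.5 CPM over all genes at 2 CPM or more. The smallest count behind any value was 26 reads (Rasgrf1, fusion replicate 3), and the smallest with empty vector was 143 reads.

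**Figure D1:**
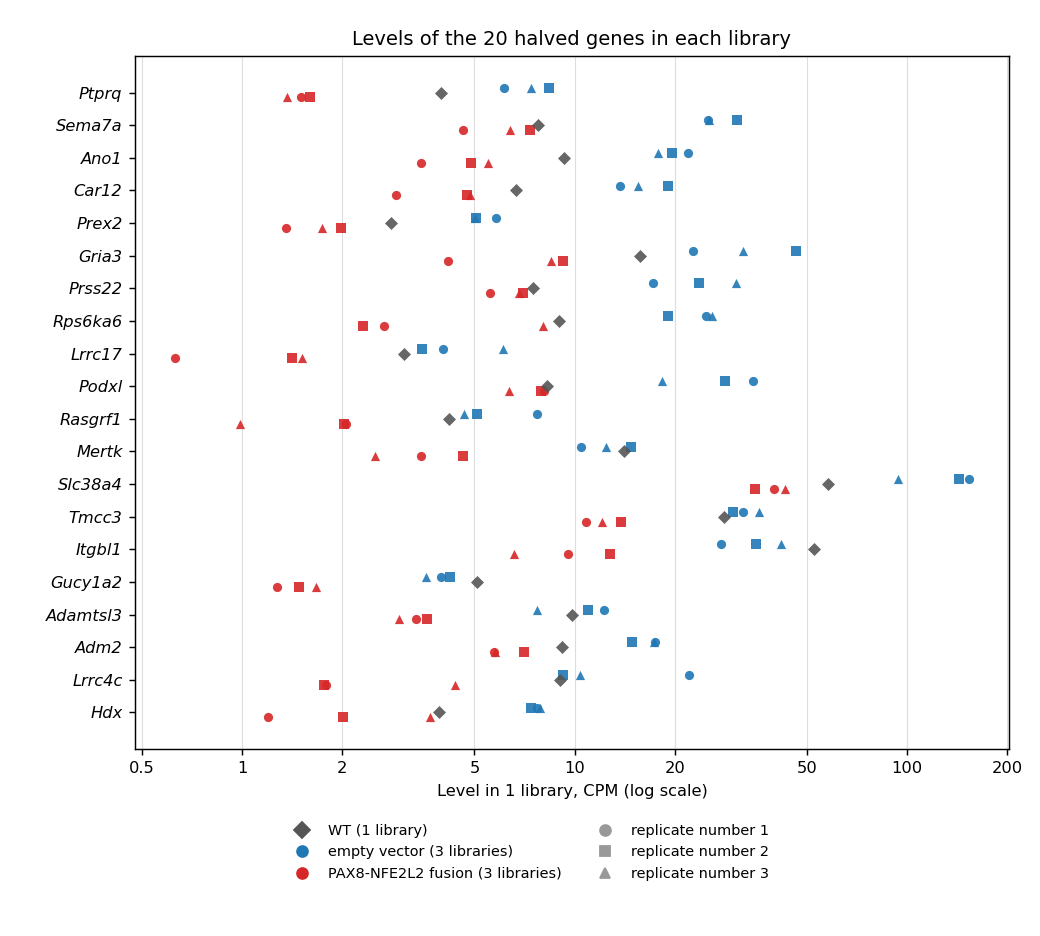
CPM (log scale, x axis) of the 20 halved genes in each of the 7 libraries, ordered from the smallest to the largest ratio of the highest fusion to the lowest empty vector library. Red points are the 3 fusion libraries, blue the 3 empty vector libraries and grey diamonds the WT library, which lies to the right of all 3 fusion libraries for all 20 genes.

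Promoter windows of RefSeq (GRCm38.p6, 250 bases before to 50 after a start site, the entry nearest the gene's annotated start) were matched by symbol to 15 of the 20 genes and to 8640 of the genes the rule could have taken. They were searched on both strands for TGACNNNGC, the core of the antioxidant response element that NRF2 binds, for TGANTCA, an AP-1 site, and for GGAATG, a TEAD site. The first stood in 3 of 15 windows (Sema7a, Rasgrf1 and Lrrc17), beside 15% of all windows, the AP-1 letters in 1 of 15 (Lrrc4c), beside 4.49%, and the TEAD letters in 0 of 15, beside 11.6%. The matched letters were TGACTCCGC in both Sema7a (first base at -49 from the start site) and Rasgrf1 (-138), each on the gene's strand, and GCCTTGTCA, read on the other strand, in Lrrc17 (-220). A match describes letters and shows no binding. The windows of the first 3 members with an entry, in the order of how far inside the threshold they lay, are given 5′ to 3′ on the gene's strand with matched letters in capitals, so that the window with a match can be set beside others without.
Sema7a, chr9:57939862-57940161, plus strand: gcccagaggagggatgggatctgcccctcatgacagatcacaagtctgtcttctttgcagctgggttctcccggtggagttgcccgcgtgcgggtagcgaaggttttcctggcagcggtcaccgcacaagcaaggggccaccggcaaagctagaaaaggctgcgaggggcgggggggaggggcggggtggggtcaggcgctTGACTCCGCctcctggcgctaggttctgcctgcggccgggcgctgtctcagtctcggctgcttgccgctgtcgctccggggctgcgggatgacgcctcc
Ano1, chr7:144738524-144738823, minus strand: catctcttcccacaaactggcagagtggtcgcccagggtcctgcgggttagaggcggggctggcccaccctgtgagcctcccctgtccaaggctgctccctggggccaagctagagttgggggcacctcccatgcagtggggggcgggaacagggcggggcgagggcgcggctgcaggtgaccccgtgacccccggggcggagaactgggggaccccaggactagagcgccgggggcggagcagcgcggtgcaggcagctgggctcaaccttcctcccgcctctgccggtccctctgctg
Car12, chr9:66713436-66713735, plus strand: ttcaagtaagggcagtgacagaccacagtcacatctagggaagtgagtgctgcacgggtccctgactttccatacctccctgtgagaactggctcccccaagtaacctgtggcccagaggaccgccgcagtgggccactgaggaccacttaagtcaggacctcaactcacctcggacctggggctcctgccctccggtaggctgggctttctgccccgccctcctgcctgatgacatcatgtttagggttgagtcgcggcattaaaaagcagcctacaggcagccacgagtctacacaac
The Ano1 and Car12 windows hold none of the 3 motifs. The Ano1 start site of RefSeq lies inside the annotated span of the gene.

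Ligands and secreted proteins are described first. Sema7a encodes a semaphorin anchored in the membrane by a lipid, which signals through plexin C1 and integrins containing the beta1 chain in axon growth and immune cells. It lay at 25.2, 30.7 and 25.4 CPM with empty vector and at 4.61, 7.33 and 6.41 CPM with the fusion, here as below in the order of replicates 1, 2 and 3. The WT library held 7.78 CPM, just above the highest fusion library. Means were 27.1 ± 3.1 and 6.12 ± 1.39 CPM (SD, n = 3 each), 4.43-fold apart. The gene (ENSMUSG00000038264.7) lies on chromosome 9:57940112-57962865 of GRCm38, plus strand. Its receptor genes did not pass the test: Plxnc1 had a log2 fold change of -0.14 (SE 0.65), Itga1 of 0.23 (SE 0.32) and Itgb1 of -0.23 (SE 0.31).

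Adm2 encodes adrenomedullin 2 (intermedin), a peptide of the calcitonin family that acts on the receptor Calcrl with its partner proteins Ramp1, Ramp2 and Ramp3. Adm2 (ENSMUSG00000054136.5, chromosome 15:89322720-89324731) lay at 17.5, 14.9 and 17.3 CPM with empty vector, 5.71, 7.02 and 5.76 CPM with the fusion and 9.14 CPM in WT. The WT value lay in the gap between the groups. Calcrl itself had a log2 fold change of -1.31 (SE 0.36) and did not pass (edgeR adjusted p = 0.14). Its means were 37.9 ± 4.73 CPM with empty vector and 15.1 ± 8.38 CPM with the fusion (SD, n = 3 each), and it passed with the replicate block (edgeR adjusted p = 0.019). The WT library held 54.6 CPM of Calcrl. The Ramp genes did not pass, with Ramp3 at 5.05 ± 1.57 and 4.72 ± 1.36 CPM (SD, n = 3 each).

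Lrrc17 encodes a secreted leucine-rich repeat protein known to restrain osteoclast formation. It lay at 4.01, 3.47 and 6.11 CPM with empty vector and 0.628, 1.42 and 1.52 CPM with the fusion, and at 3.06 CPM in WT, below the empty vector range (ENSMUSG00000039883.5, chromosome 5:21543559-21575904). These fusion values rest on 33, 78 and 40 reads. Lrrc17 overlaps Fbxl13 on the other strand, and since the counting's strand setting is not given, reads of overlapping genes cannot be assigned with certainty. Such an overlap concerns 8 of the 20 genes, the others being Ano1, Prex2, Mertk, Tmcc3, Itgbl1, Lrrc4c and Hdx.

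Itgbl1 encodes a secreted protein built of EGF-like repeats akin to those of integrin beta chains. It lay at 27.5, 35 and 41.9 CPM with empty vector and 9.56, 12.8 and 6.56 CPM with the fusion (ENSMUSG00000032925.15, chromosome 14:123659971-123975618). The WT library held 52.5 CPM, above all 6 others. Adamtsl3 encodes a secreted glycoprotein that resembles the ADAMTS proteases but lacks the protease domain. Its values were 12.3, 10.9 and 7.71 CPM with empty vector, 3.33, 3.61 and 2.96 CPM with the fusion and 9.84 CPM in WT, inside the empty vector range (ENSMUSG00000070469.10, chromosome 7:82335694-82614450).

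Receptors and adhesion proteins at the cell surface made up the next group. Mertk encodes a receptor tyrosine kinase of the TAM family, which senses dying cells through Gas6 and protein S and dampens inflammation. It lay at 10.4, 14.8 and 12.4 CPM with empty vector and 3.45, 4.63 and 2.5 CPM with the fusion (ENSMUSG00000014361.5, chromosome 2:128698956-128802894). The WT library, at 14 CPM, lay within the empty vector range. The other TAM receptors did not pass: Axl, at 883 ± 184 and 738 ± 165 CPM (SD, n = 3 each), had a log2 fold change of -0.23 (SE 0.26) and Tyro3 of -0.11 (SE 0.32). Their ligand genes Gas6 (-1.03, SE 0.38) and Pros1 (0.62, SE 0.27) did not pass either (edgeR adjusted p = 0.32 and 0.45).

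Ptprq encodes a receptor-type phosphatase that also acts on phosphatidylinositol lipids and is known from the hair bundles of the inner ear. It stood farthest inside the threshold of the 20, with a highest fusion level 0.26 times the lowest empty vector level. Its libraries held 6.14, 8.39 and 7.41 CPM with empty vector, 1.5, 1.6 and 1.36 CPM with the fusion and 3.95 CPM in WT (ENSMUSG00000035916.7, chromosome 10:107517049-107720051). The fusion libraries agreed closely, with a mean of 1.49 ± 0.117 CPM (SD, n = 3). Of its relatives Ptprb and Ptprj were tested and did not pass, with log2 fold changes of 0.96 (SE 0.51) and 0.19 (SE 0.29).

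Podxl encodes podocalyxin, a sialomucin that keeps the foot processes of kidney podocytes apart and binds ezrin and its adaptors on the inner side of the membrane. It lay at 34.3, 28.4 and 18.3 CPM with empty vector, 8.09, 7.95 and 6.33 CPM with the fusion and 8.27 CPM in WT (ENSMUSG00000025608.9, chromosome 6:31519488-31563981). The WT library was thus 1.11 times the fusion mean. Ezr, the gene of ezrin, rose: its means were 76.4 ± 19.4 CPM with empty vector and 194 ± 48.9 CPM with the fusion (log2 fold change 1.37, SE 0.27, edgeR adjusted p = 0.047). Ezr was no longer called when empty vector replicate 2 or 3 or fusion replicate 1 or 2 was left out (edgeR adjusted p = 0.2, 0.1, 0.15 and 0.12), with log2 fold changes of 1.14 to 1.58 over the 6 fits without 1 library. The family member Cd34 (0.33, SE 0.23) and the adaptors Slc9a3r1 (0.41, SE 0.23) and Slc9a3r2 (-0.08, SE 0.23) did not pass. Cd34 passed as higher with the replicate block (edgeR adjusted p = 0.045).

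Lrrc4c encodes netrin-G ligand 1, an adhesion protein of excitatory synapses that binds netrin-G1. It lay at 22.1, 9.22 and 10.4 CPM with empty vector and 1.79, 1.76 and 4.36 CPM with the fusion (ENSMUSG00000050587.13, chromosome 2:96318169-97631666). Empty vector replicate 1 was the high library and fusion replicate 3 the high one of its group. The WT library held 9.04 CPM, just below the lowest empty vector library. Ntng1, the gene of its ligand, lay at 0.858 ± 0.626 CPM with empty vector and 0.199 ± 0.146 CPM with the fusion (SD, n = 3 each) and did not pass (edgeR adjusted p = 0.37, and 0.017 with the replicate block). WT held 4.86 CPM of Ntng1, above both groups.

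Channels and transporters follow. Slc38a4 encodes a sodium-coupled transporter of neutral amino acids, an imprinted gene in mouse. It lay at 154, 143 and 93.7 CPM with empty vector, 39.8, 35 and 42.9 CPM with the fusion and 57.7 CPM in WT (ENSMUSG00000022464.12, chromosome 15:96994820-97055956). Per kilobase of exon it was the highest of the 20, at 30.6 CPM per kb with empty vector, followed by Prss22 at 18 and Adm2 at 12.7 CPM per kb. Prex2 was the lowest at 0.318 CPM per kb. Of the 6 other SLC38 genes tested none passed with edgeR, with the replicate block or with DESeq2. Slc38a2, its neighbour on chromosome 15, lay at 718 ± 119 and 720 ± 58.4 CPM (SD, n = 3 each).

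Ano1 encodes a calcium-activated chloride channel of secretory epithelia and pacemaker cells. It lay at 21.9, 19.6 and 17.8 CPM with empty vector, 3.45, 4.88 and 5.5 CPM with the fusion and 9.29 CPM in WT (ENSMUSG00000031075.16, chromosome 7:144588549-144751974). The other anoctamins with enough reads to test did not pass, with log2 fold changes of 0.03 for Ano6, -0.04 for Ano8 and 0.55 for Ano10 (SE 0.31, 0.25 and 0.21). Ano10 passed as higher with the replicate block (edgeR adjusted p = 0.013).

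Gria3 encodes a subunit of AMPA receptors, the fast glutamate-gated channels of neurons. Its empty vector libraries held 22.7, 46.5 and 32.1 CPM, its fusion libraries 4.17, 9.23 and 8.49 CPM and WT 15.7 CPM (ENSMUSG00000001986.15, chromosome X:41400854-41678601). It was the only AMPA receptor gene above 2 CPM in an empty vector library. Gria1 lay at 0.832 ± 0.301 CPM with empty vector and 1.14 ± 0.135 CPM with the fusion, and Gria4 at 0.13 ± 0.0835 and 0.0626 ± 0.067 CPM (SD, n = 3 each). Gria2 had 0 reads in all 6, which allows up to 0.0503 to 0.114 CPM in a library, counting error only.

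Surface and secreted enzymes were Car12 and Prss22. Car12 encodes a carbonic anhydrase whose active site faces the outside of the cell and which takes part in pH control. It lay at 13.7, 19.1 and 15.5 CPM with empty vector, 2.91, 4.75 and 4.85 CPM with the fusion and 6.66 CPM in WT (ENSMUSG00000032373.13, chromosome 9:66713686-66766845). Another carbonic anhydrase moved the other way: Car2, a cytosolic enzyme, rose from 1.17 ± 0.458 to 5.8 ± 1.51 CPM (SD, n = 3 each; log2 fold change 2.33, SE 0.37, edgeR adjusted p = 0.021). Car6 had a log2 fold change of -2.11 (SE 0.73) and did not pass (edgeR adjusted p = 0.28, and 0.0029 with the replicate block). Car2 was no longer called without empty vector replicate 1 or 3 or fusion replicate 2 (edgeR adjusted p = 0.057, 0.054 and 0.068). Car9, the hypoxia-linked member, lay at 1.48 ± 1.1 and 1.59 ± 1.91 CPM (SD, n = 3 each).

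Prss22 encodes a secreted tryptase-like serine protease of epithelia. It lay at 17.2, 23.7 and 30.7 CPM with empty vector, 5.58, 7 and 6.79 CPM with the fusion and 7.49 CPM in WT (ENSMUSG00000045027.6, chromosome 17:23993534-23998100). WT was thus 1.16 times the fusion mean.

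Signalling proteins inside the cell formed the last sizeable group. Rps6ka6 encodes RSK4, a p90 ribosomal S6 kinase of the ERK pathway. It had the largest fold between means, 5.37, and lay at 24.8, 19.1 and 25.9 CPM with empty vector, 2.67, 2.3 and 8.04 CPM with the fusion and 8.99 CPM in WT (ENSMUSG00000025665.15, chromosome X:111388192-111537959). Fusion replicate 3 was the high library of its group. None of the 5 related kinase genes Rps6ka1 to Rps6ka5 passed with edgeR or DESeq2. Rps6ka1 (log2 fold change -0.79, SE 0.35) passed with the replicate block (edgeR adjusted p = 0.011).

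Prex2 encodes an exchange factor that activates RAC1. It lay at 5.79, 5.05 and 5.01 CPM with empty vector, 1.35, 1.98 and 1.75 CPM with the fusion and 2.8 CPM in WT (ENSMUSG00000048960.12, chromosome 1:10993465-11303681). Rac1 itself lay at 205 ± 32.1 and 207 ± 30.3 CPM (SD, n = 3 each). Rasgrf1 encodes a calcium-responsive exchange factor for RAS, imprinted in mouse brain. Its values were 7.74, 5.1 and 4.64 CPM with empty vector, 2.06, 2.03 and 0.986 CPM with the fusion and 4.18 CPM in WT (ENSMUSG00000032356.11, chromosome 9:89909908-90026977). The general RAS exchange factors Sos1 (-0.03, SE 0.29) and Sos2 (-0.29, SE 0.25) did not pass.

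Gucy1a2 encodes the alpha2 subunit of soluble guanylate cyclase, which binds nitric oxide and makes cyclic GMP only as a pair with a beta subunit. It lay at 3.96, 4.23 and 3.57 CPM with empty vector and 1.28, 1.49 and 1.67 CPM with the fusion, and WT lay above both groups at 5.09 CPM (ENSMUSG00000041624.9, chromosome 9:3532778-3894736). The partner subunit gene Gucy1b1 had 0 reads with empty vector and a mean of 0.0181 CPM with the fusion, at most about the level of 3 reads. The other subunit genes, Gucy1a1 and Gucy1b2, had means of at most 0.0809 CPM. Gucy1a2 lies toward the start of chromosome 9, at 3.53 to 3.9 Mb, before the stretch that the rule left out. The 2 flanking genes at 2 CPM or more, Cwf19l2 and Aasdhppt, had log2 fold changes of -0.18 and 0.00 and did not pass.

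The remaining members were Tmcc3 and Hdx. Tmcc3 encodes a membrane protein of the endoplasmic reticulum and lay at 32.1, 30 and 35.8 CPM with empty vector, 10.8, 13.8 and 12.1 CPM with the fusion and 28.1 CPM in WT (ENSMUSG00000020023.16, chromosome 10:94311949-94590956). Its relatives Tmcc1 and Tmcc2 had log2 fold changes of -0.19 and -0.30 (SE 0.17 and 0.22) and did not pass. Hdx encodes a divergent homeobox protein and lay at 7.74, 7.39 and 7.86 CPM with empty vector, 1.2, 2.01 and 3.68 CPM with the fusion and 3.92 CPM in WT (ENSMUSG00000034551.11, chromosome X:111569931-111697079). Its empty vector libraries were even (7.66 ± 0.243 CPM, SD, n = 3) while its fusion libraries spread (2.3 ± 1.26 CPM).

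Hdx and Rps6ka6 are neighbours on the X chromosome, with starts 0.182 Mb apart, and were the only members within 200 kb of another. In both, fusion replicate 3 was the highest fusion library. The 20 genes lay on 11 chromosomes, 4 of them on chromosome 9 and 3 on X, where 5.29 and 3.52% of the genes the rule could have taken lie. Each member was also set beside the nearest gene at 2 CPM or more on either side. Of 40 such pairs, 38 had a flanking gene that is no member; the median of these was -0.01 on the log2 scale. Over the 40 pairs 1 flanking gene passed as lower (edgeR), the member Rps6ka6 beside Hdx. In turn 1 passed as higher, Tmtc4 beside Itgbl1 (log2 fold change 1.24, edgeR adjusted p = 0.02). With the replicate block 4 passed as lower, both of these X-linked members and 2 others, Aph1b beside Car12 and Sulf1 beside Prex2 (edgeR adjusted p = 0.025 and 0.049). Over all tested genes 0.353% passed as lower with edgeR and 5.5% with the block.

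The WT library was not used in choosing the genes, although the ranges it is set against were. By the rule each member has a gap between those ranges. Over all genes at 2 CPM or more, all fusion libraries lay below all empty vector libraries for 7.52%. The choice itself favours WT values above the fusion range or below the empty vector range. Shares of all genes given here are thus no like background for the members. WT lay above every fusion library for 20 of 20 genes, beside 17.3% of all genes at 2 CPM or more in each empty vector library. It lay below every empty vector library for 16 of 20, beside 28.7% of those genes, inside the empty vector range for 2 (Mertk and Adamtsl3) and above it for 2 (Itgbl1 and Gucy1a2). WT was at most 0.5 times the lowest empty vector library for 5, beside 1.03%. The highest fusion library was at most 0.5 times WT for 9, beside 0.963%. The median ratio of WT to the empty vector mean was 0.535 and that of WT to the fusion mean 2.11, beside 0.931 and 0.944 over all such genes. Library sizes scaled by TMM gave 15 of 20 below the empty vector range, beside 21.5%, and 20 of 20 above the fusion libraries, beside 24.0%. The members are not alike in this respect. Sema7a, Podxl and Prss22 held WT levels 0.287, 0.306 and 0.314 times the empty vector mean, near their fusion levels, while Itgbl1, Gucy1a2 and Mertk held 1.51, 1.3 and 1.12 times that mean. Summed smooth muscle markers stood at 1333 CPM in WT, 221 to 582 CPM with empty vector and 359 to 798 CPM with the fusion, and their part in the WT values was not tested. WT is 1 library, so these positions have no replicate check and no test was made, and empty vector is a shared reference of both comparisons.

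**Figure D2:**
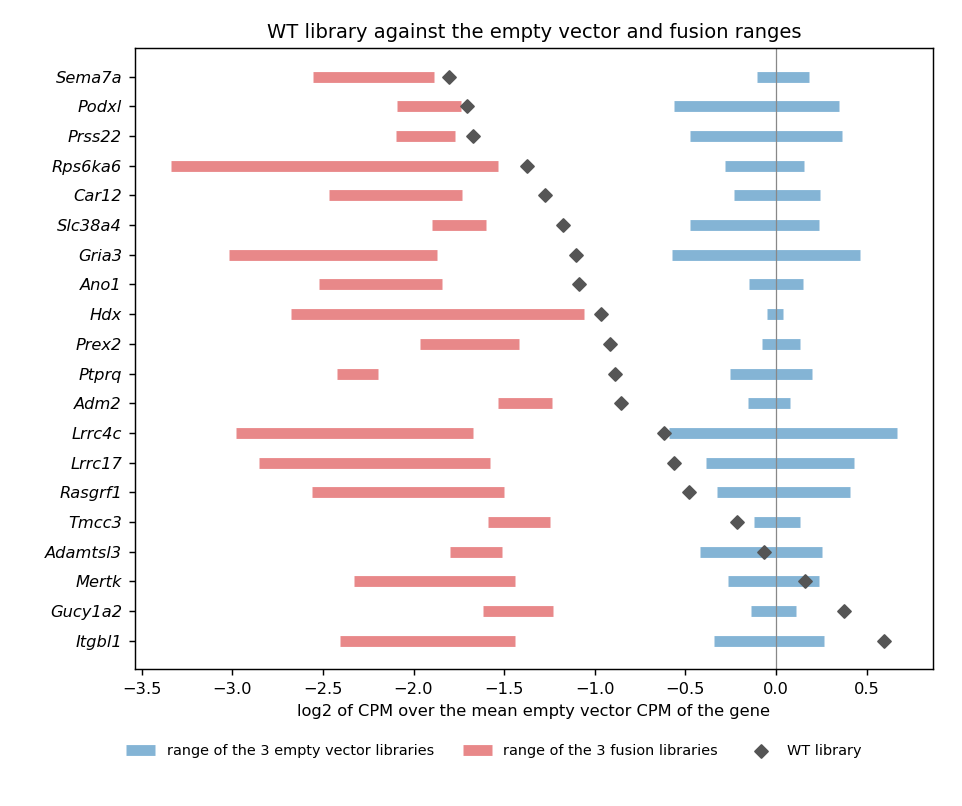
The WT library (grey diamond) against the range of the 3 empty vector libraries (blue bar) and of the 3 fusion libraries (red bar), as log2 of CPM over the gene's mean empty vector CPM. Genes run from Sema7a, where WT is nearest the bottom of its scale at 0.287 times the empty vector mean, to Itgbl1 at 1.51 times, and all 20 diamonds lie to the right of the red bars.

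Replicate numbers were then compared. Within a number, the ratio of fusion to empty vector is at most 0.5 for every member by the rule itself, so what varies is how far below. Ptprq (0.245, 0.19 and 0.184 for numbers 1, 2 and 3), Tmcc3 (0.338, 0.458 and 0.338) and Sema7a (0.183, 0.239 and 0.252) were the most even. Lrrc4c (0.0812, 0.191 and 0.419), Hdx (0.155, 0.273 and 0.468) and Rps6ka6 (0.107, 0.12 and 0.31) were the least even, each with its highest ratio in number 3. Fusion replicate 1 was the lowest fusion library for 11 of the 20 genes, fusion replicate 2 for 3 and fusion replicate 3 for 6.

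**Figure D3:**
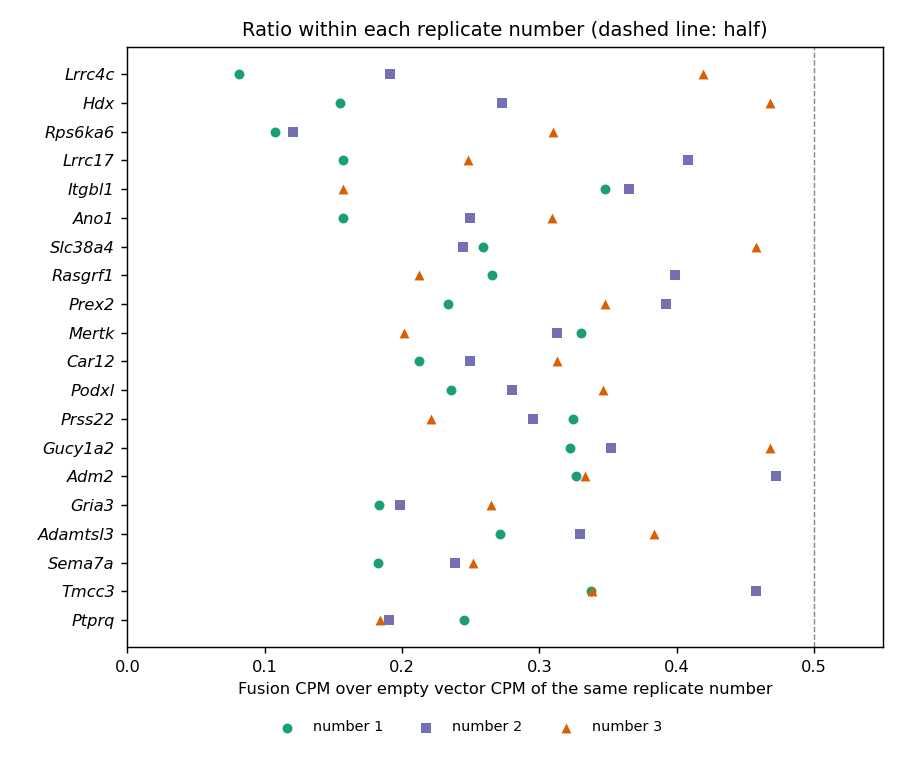
Fusion CPM over empty vector CPM of the library with the same replicate number (x axis) for the 20 genes, ordered from the least to the most even. Points are numbers 1 (circle), 2 (square) and 3 (triangle), and the dashed line marks 0.5, below which the rule places all points.

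To read the measure in libraries that a choice did not use, the rule was applied to 2 replicate numbers and the pair with the third number was read. Numbers 2 and 3 chose 86 genes, of which 63 (73.3%) were at 0.5 or less in number 1, beside 2.72% of the genes at 2 CPM or more in the empty vector libraries used. Numbers 1 and 3 chose 55, of which 48 (87.3%) were at 0.5 or less in number 2, beside 2.54%. Numbers 1 and 2 chose 93, of which 44 (47.3%) were at 0.5 or less in number 3, beside 3.34%. The median ratios in the number read were 0.345, 0.372 and 0.512, against 0.986, 0.968 and 1.01 for the background. All 20 members were in each choice, because meeting the rule in 3 numbers entails meeting it in 2. The rule also places them at 0.5 or less in the number read, so all 20 are among the 63, 48 and 44. These shares therefore describe the 86, 55 and 93 chosen genes and are no check on the 20 members.

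A few genes on either side mark the edge of the rule. Just inside lay Adm2 (highest fusion level 0.472 times the lowest empty vector level), Lrrc4c (0.473) and Hdx (0.498). Just outside lay Crabp2, a retinoic acid binding protein (0.502), Robo1, a receptor of the axon guidance protein SLIT (0.503), and Neto2, an auxiliary subunit of kainate receptors (0.506). The exact 95% counting interval of the ratio, which covers counting error only, spanned 0.5 for each of these 6 genes, from 0.395 to 0.623 for Hdx to 0.492 to 0.521 for Neto2. Robo1 lay at 21.4, 19.3 and 7.21 CPM with empty vector and 2.7, 3.63 and 2.43 CPM with the fusion. Empty vector replicate 3 was its low library. Of the genes the rule could have taken, 2 had ratios up to 0.3, 3 above that and up to 0.4, 15 up to 0.5, 33 up to 0.6 and 50 up to 0.7, so the genes are the end of a continuous range.

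**Figure D4:**
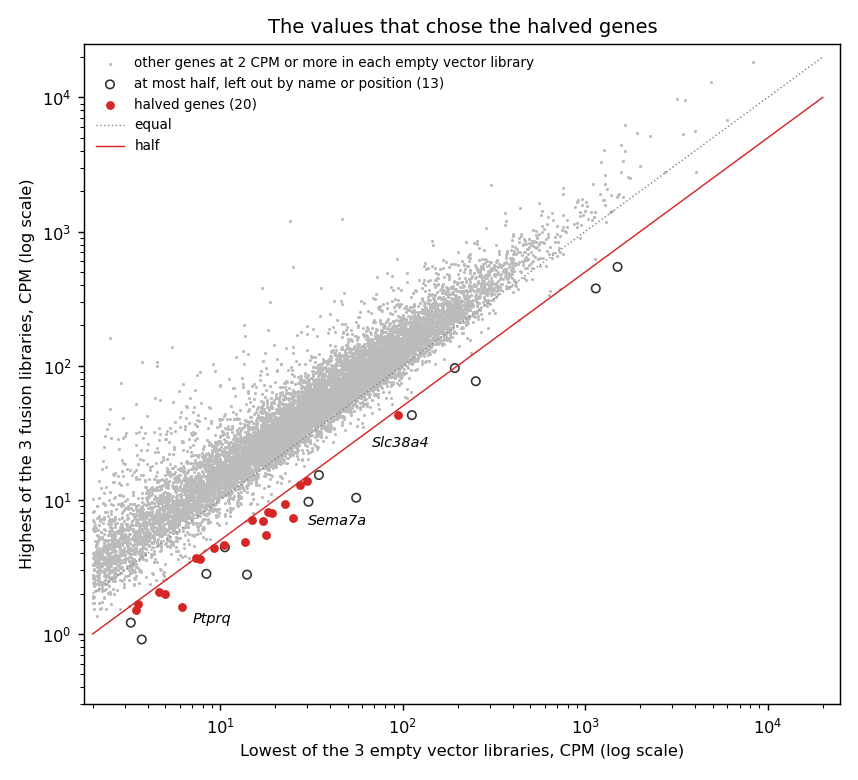
The highest of 3 fusion libraries (y axis, CPM, log scale) against the lowest of 3 empty vector libraries (x axis, CPM, log scale) for the 11730 genes at 2 CPM or more with empty vector. Red points are the 20 halved genes, open circles the 13 genes left out by name or position, the red line marks a ratio of 0.5 and the dotted line equality, and the red points lie along the lower edge of the cloud.

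Relatives and binding partners of 16 members were listed by name after the members were known. Of 85 such genes found in the tables, 55 had enough reads to test. With edgeR 0 passed as lower and 2 as higher (Car2 and Ezr), beside 0.353% lower and 2.04% in either direction over all tested genes. At that share 0 of 55 lower does not set the relatives apart. Their median fitted log2 fold change was 0.03, against 0.01 over all tested genes. At an unadjusted p under 0.05, 6 were lower, and DESeq2 called 2 lower, Calcrl and Car6, and 2 higher. With the replicate block 5 passed as lower, Car6, Rps6ka1, Adamtsl5, Calcrl and Ntng1, and 4 as higher, Car2, Ezr, Ano10 and Cd34. Over all genes tested the block called 5.5% lower and DESeq2 1.4%. No relative met both level criteria of the rule.

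**Figure D5:**
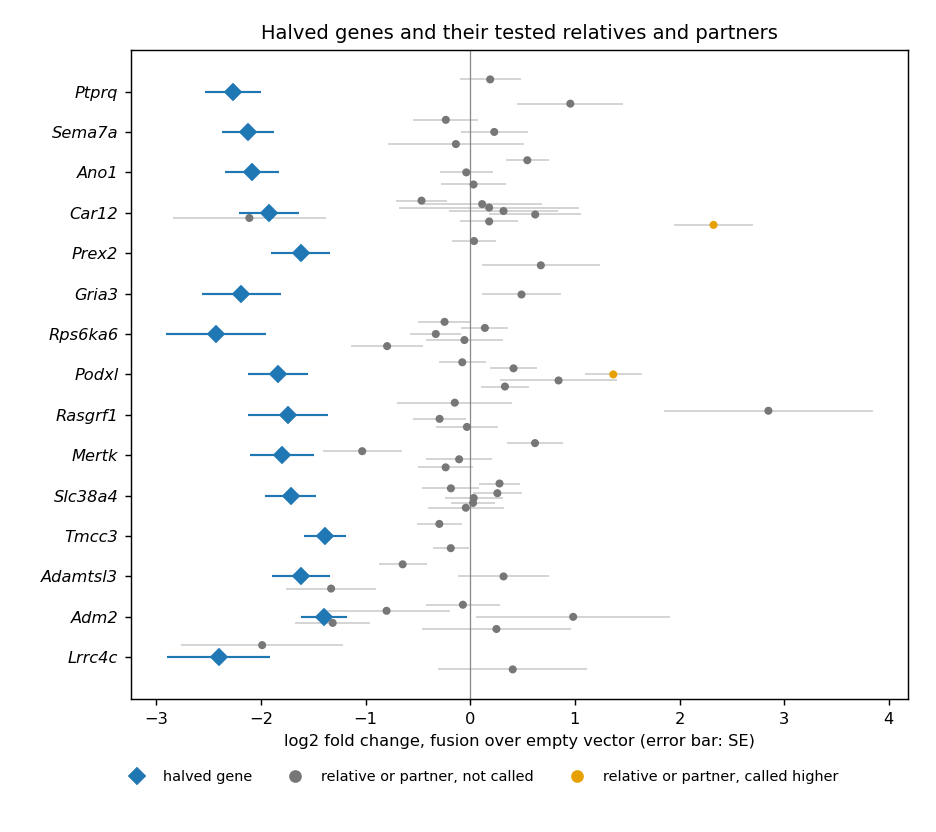
Fitted log2 fold change of fusion over empty vector (x axis, error bars are SE) for the halved genes with listed relatives (blue diamonds) and for their 55 tested relatives and partners (circles, a row for each member). Car2 in the Car12 row and Ezr in the Podxl row, in orange, were called higher, and no circle was called lower.

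Of 26 gene lists drawn up by family and pathway, 6 held members, 8 members in all, and 12 members stood in no list. The ion channel list (137 genes tested) had 3 lower, the members Ano1 and Gria3 among them, and 8 higher, and its median fitted log2 fold change was -0.08. With the replicate block 15 were lower and 16 higher. The list of proteases and inhibitors of the matrix (110 genes) had 2 lower, Prss22 and Adamtsl3, both members, and 4 higher (median -0.11), and the replicate block called 19 lower and 13 higher. In this list 20 genes were lower at an unadjusted p under 0.05, and DESeq2 called 8 lower. Axon guidance (73 genes) had 4 lower and 5 higher (median -0.04): beside Sema7a these were Robo1, Flrt2 and Rgmb. Flrt2, an adhesion protein that binds UNC5 receptors, fell from 123.5 ± 26.6 to 55 ± 2.5 CPM, and Rgmb, a BMP co-receptor, from 67.8 ± 6.4 to 34.4 ± 0.444 CPM (SD, n = 3 each, edgeR adjusted p = 0.031 and 0.04). The block called 6 of this list lower and 14 higher. Growth factors and receptor tyrosine kinases (68 genes) had 3 lower, Mertk, Flt1 and Nrg2, and 2 higher (median -0.05), against 8 lower and 11 higher with the block. Flt1, a VEGF receptor, fell from 19 ± 3.41 to 6.8 ± 1.56 CPM (edgeR adjusted p = 0.033), and its highest fusion library was 0.527 times its lowest empty vector library. Solute carriers and other transporters (312 genes) had 2 lower, Slc38a4 and the sodium-proton exchanger Slc9a7, and 13 higher (median 0.04), against 21 lower and 48 higher with the block. Slc9a7 went from 2.59 ± 0.521 to 0.78 ± 0.0338 CPM and missed the rule by its empty vector replicate 3, which held 1.996 CPM. Over all 16731 tested genes 0.353% were lower with edgeR, 2.04% passed in either direction, and the median was 0.01. The replicate block called 5.5% of them lower and 2196 genes in either direction, and DESeq2 called 1.4% of 20006 genes lower. Counts in the lists were not tested against these shares. The medians of the 20 lists without a member ran from -0.85 (interferon response) to 0.79 (NRF2 targets and glutathione). In the latter 22 of 70 passed as higher and 0 as lower with edgeR, none was lower at an unadjusted p under 0.05 or with DESeq2, and the replicate block called 45 higher and 3 lower. In the interferon list of 94 genes 0 passed in either direction with edgeR, 20 were lower at an unadjusted p under 0.05, DESeq2 called 8 lower, and the block called 20 lower and 0 higher.

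YAP and TEAD targets were looked at as a list because Yap1 lies in the stretch of chromosome 9 that was left out. Of 22 tested, 0 passed in either direction with edgeR, and 0 were lower at an unadjusted p under 0.05, with DESeq2 or with the replicate block. The block called 3 higher. Over all tested genes 0.353% passed as lower with edgeR and 5.5% with the block, so 0 of 22 lower does not set this list apart. The lowest and highest fitted values were Ccn2, a matricellular growth factor (log2 fold change -0.75, SE 0.43), and Fjx1 (2.25, SE 0.75), and neither passed (edgeR adjusted p = 0.67 and 0.25).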

How the data were processed

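RNA of TRAMP-C1 cells was sequenced in 7 libraries (polyA RNA, single-end reads). The deposited values are raw read counts per Ensembl gene, 1 table for each lane, 12 in all. STAR, HTSeq and GRCm38 are named in the submitters' processing notes, and the strand setting of the counting was not given in the sources used here. Lanes of a library were summed and CPM taken over the sum of gene rows, leaving out HTSeq's summary rows (multiple alignment 36.1 to 45.3%, no feature 5.73 to 6.93%, ambiguous 1.22 to 1.48%). Symbols and positions came from GENCODE M21 (46005 of 46603 rows). Members and lists were chosen with earlier results of these data known. All genes were fitted with edgeR 4.0.16 (R 4.3.3; filterByExpr, minimum count 10; TMM; quasi-likelihood test) on the 6 transduced libraries, with Benjamini-Hochberg adjustment over 16731 genes. The scripts were tested on simulated data. The counts simulated for edgeR had a smaller spread than the fitted one and no pairing, so they check the code and not the error rates here. DESeq2 1.42.0, a replicate block, other filters and left-out libraries were the alternatives. Same-numbered libraries deviated together (r = 0.609 to 0.658 across genes, against -0.53 to -0.0469 for different numbers), so the numbers were taken as pairs in the block. Deviations within a group of 3 balance out, so the negative values are no separate evidence. The pairing comes from the data and the shared numbers, and the labels name no shared day. Both libraries numbered 3 also differ from the rest in lanes, and what same-numbered libraries share was not tested. Named genes were those with the smallest ratios, the highest empty vector levels, the extreme WT ratios and those nearest the threshold; as these cover most of the 20, all 20 are given, and relatives, flanking genes and other list genes were added after values were seen. Some marker and list results are not reported here.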

Additional observations from a re-analysis of the deposited data

How the results depend on the processing

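Genes called over the whole table numbered 59 lower and 341 in either direction (edgeR). They came to 920 and 2196 with the replicate block, 280 and 896 with DESeq2, and 133 and 530 with no filter on low counts. Leaving out 1 library gave 10 to 75 lower, with 10 when empty vector replicate 2 was dropped and 14 and 16 when fusion replicate 1 or 2 was, and 133 to 384 in either direction. Leaving out number 1, 2 or 3 in both groups gave 2, 0 and 59 lower (526, 371 and 874 at an unadjusted p under 0.05) and 36, 4 and 329 in either direction. Of the 20 members, edgeR called 11, 3 and 14 without empty vector replicate 1, 2 or 3, and 4, 6 and 15 without fusion replicate 1, 2 or 3. Without number 1, 2 or 3 it called 0, 0 and 10 (20 each time at an unadjusted p under 0.05). The members' log2 fold changes were negative under every alternative run. The choice fixed this sign, since the rule places every fusion library below every empty vector library, so it is no check. The rule found 25 genes with TMM library sizes, 3 and 0 at stricter ratios of 1/3 and 1/4, 33 with the left-out genes kept in, 24 to 79 without 1 library, and 86, 55 and 93 without number 1, 2 or 3. A minimum of 5 CPM dropped Gucy1a2, Lrrc17 and Rasgrf1. The counts of WT positions moved by at most 1 gene. Depth limits the lowest values, where a fusion level rests on as few as 26 reads.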
